A study of Mus musculus with 8 samples.

Results

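The 10 genes described here encode inflammatory cytokines and modulators of interleukin-1 α and β: Il1a, Il1b, Il1rn, Il1r2, Tnf, Il6, Lif, Osm, Il33 and Il18. They were taken by their symbols from the 32285 genes listed for periosteal cells, and all 10 were detected in both diets. Cells released by enzymatic digestion from the periosteum of the left femur and tibia of male C57BL/6J mice, 16 weeks old, were captured in droplets and sequenced one by one for their RNA. One group received normal diet (ND) and the other high-fat diet (HFD), with no other labelled treatment or allele in either. The labels list 4 mice per diet, while each diet was deposited as 1 pooled matrix in which no barcode is tied to a mouse. Each diet is therefore 1 library, no test between diets could be made, and every difference below compares 2 libraries. Each sequenced molecule carries the barcode of its cell and its own identifier (UMI, unique molecular identifier), and counts are therefore of molecules. Levels are UMIs per 1000000 UMIs (UPM) of the cells named, and the values in parentheses after levels, shares and log2 ratios are exact 95% intervals for counting error alone.

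Interleukin-1 (IL-1) α and β, encoded by Il1a and Il1b, are the ligands of a shared receptor, and IL-1β needs cleavage by an inflammasome protease before it acts. Il1rn encodes the receptor antagonist, which occupies the receptor without signalling, and Il1r2 a decoy receptor that binds the ligands without signalling. Tnf encodes tumor necrosis factor, a product of activated myeloid cells and lymphocytes. IL-6, leukemia inhibitory factor (Lif) and oncostatin M (Osm) signal through receptors that share the gp130 subunit, and all 3 act on cells of bone. IL-33 and IL-18 belong to the IL-1 family: IL-33 is a nuclear protein of stromal cells that is released on damage, and IL-18 is matured like IL-1β.

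The rule kept barcodes with over 500 and under 8000 genes whose UMIs were less than 20% mitochondrial, which left 6029 ND cells with 48106513 UMIs (median 4610 per cell) and 6224 HFD cells with 49411888 UMIs (median 4823.5). The cells fell into 28 clusters, and all but clusters 10 and 16 were named from marker genes, as 15 classes, each called X-like because the names rest on markers alone. The 10 genes had been taken out of the features used for clustering, so that none of them helped to define a class. In every class each marker had UMIs in both libraries, except 1 marker of the pericyte or smooth muscle cell-like class that was at 0 in ND. Cluster 10 (211 ND and 161 HFD cells) was left unnamed for its low depth. Cluster 16 (80 and 118 cells) scored closest to macrophages. It was left unnamed because its leading genes held more conventional dendritic cell markers than macrophage markers. These were H2-Ab1, an MHC class II gene, and Cd209a, against Apoe. The libraries shared 14 barcodes among the kept cells. Doublets were not removed. Clusters 22 (mature neutrophil-like), 21 (monocyte-like) and 19 (T cell-like) came mostly from the ND library, with 94.3%, 75.5% and 72.4% of their cells, and a ratio of these classes is also given without them where that ended a call or moved the ratio by over 1.5 times.

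The 10 genes fell into 3 patterns by place. UMIs of Il1b, Il1r2, Il1rn and Osm came mostly from the mature and immature neutrophil-like classes, which made up 39.9% of ND and 39.1% of HFD cells. These classes held 85.4% of all Il1b UMIs in ND and 82.7% in HFD. Their share was 91.1% and 92.6% for Il1r2, 88.8% and 89.3% for Il1rn, and 77.6% and 79.1% for Osm. Tnf and Il1a were divided between neutrophil-like cells and other myeloid cells, with 45.3% and 42.5% of Tnf UMIs and 74.2% and 49.2% of Il1a UMIs in the neutrophil-like classes. Il6, Il33, Il18 and Lif lay mostly outside neutrophils. Only 0.321% of Il6 UMIs in ND and 1.30% in HFD were found there, 4.03% and 1.69% of Il33 UMIs, 11.5% and 7.46% of Il18 UMIs, and 4.96% and 7.14% of the 141 and 42 Lif UMIs. By the mean of both libraries' levels, the named class with the highest level was the mature neutrophil-like class for Il1b, Il1rn, Il1r2 and Osm, the macrophage-like class for Il1a, Tnf and Il18, the basophil or mast cell-like class for Il6, the mesenchymal cell-like class for Il33 and the monocyte-like class for Lif. For Osm this order rested on cluster 22: without clusters mostly of 1 library the mature neutrophil-like levels were 203 UPM in ND and 194 UPM in HFD, while basophil or mast cell-like cells stood at 272 and 172 UPM and thus higher by the mean.

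**Figure D1:**
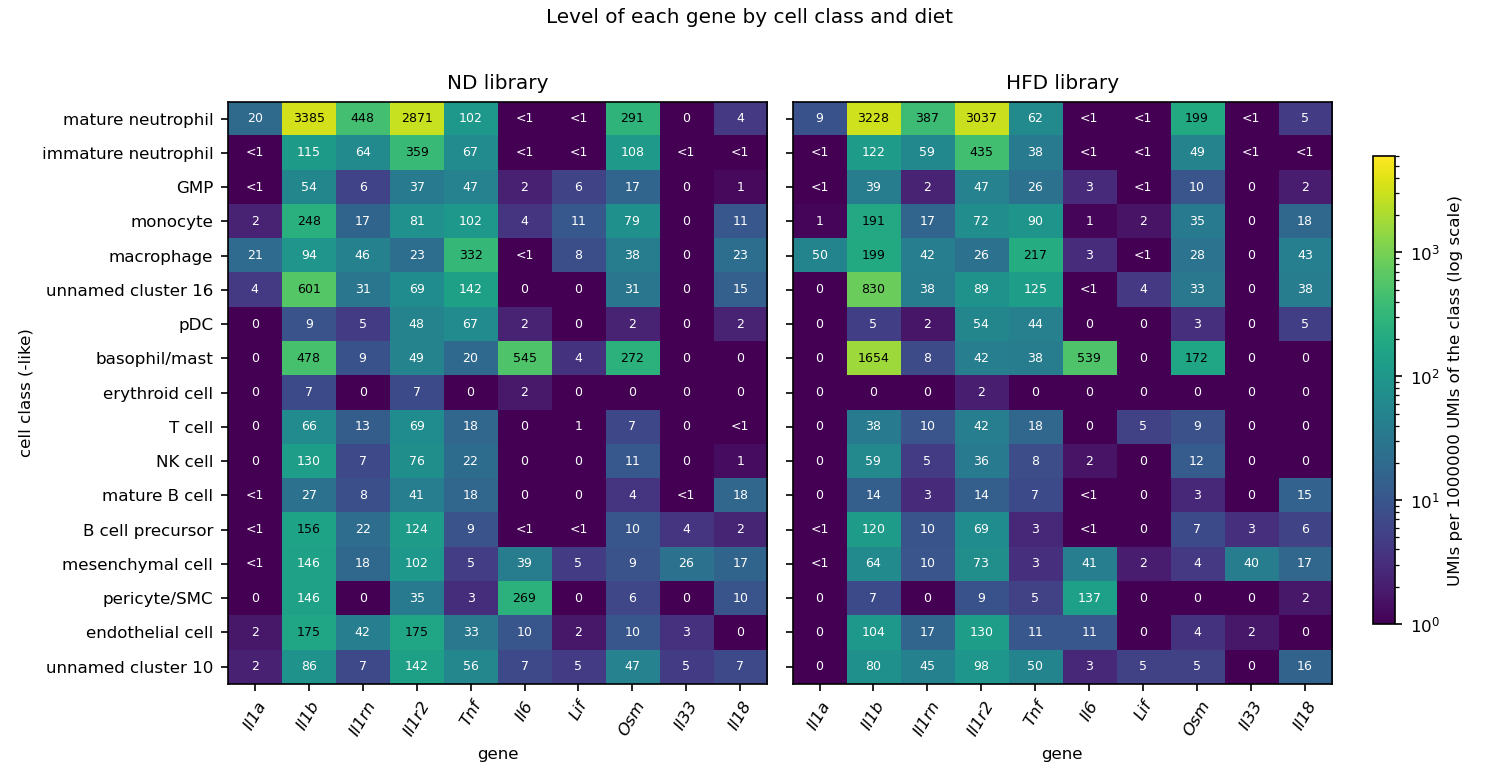
Level of each of the 10 genes (columns) in each cell class (rows), ND and HFD side by side, as UMIs per 1000000 UMIs of the class on a log colour scale. In mature neutrophil-like cells Il1b stood at 3385 and 3228 and Il1r2 at 2871 and 3037, Il6 stood at 545 and 539 in basophil or mast cell-like cells, and Il33 was highest in mesenchymal cell-like cells in both diets.

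Between diets, a log2 ratio of HFD over ND was taken for a gene in a class with at least 20 UMIs over both libraries, and a ratio past 1.5-fold is called higher or lower here as a rule of size, not as a test. In the 15 named classes this gave 77 ratios, of which 35 were past 1.5-fold lower in HFD, 8 past 1.5-fold higher and 34 neither. Over all genes with 20 UMIs in the same classes, 8.36% of the ratios were past 1.5-fold lower and 7.27% higher. Tnf was past 1.5-fold lower in 9 of 13 classes and higher in 1, Il1b lower in 6 of 13 and higher in 2, Il1rn lower in 5 of 10, Osm lower in 5 of 10, Il1r2 lower in 4 of 13 and Lif lower in 3 of 3. By class, all lower calls of Il1b, Il1rn and Il1r2 lay outside the mature and immature neutrophil-like classes, which held most of their UMIs. In those classes the log2 ratios were -0.07 and 0.09 for Il1b, -0.21 and -0.14 for Il1rn, and 0.08 and 0.28 for Il1r2. Single immature clusters departed from their class. In clusters 14, 6 and 4 the log2 ratios were -1.67, -1.28 and 0.37 for Il1b and -0.44, -0.997 and 0.0048 for Il1rn. For Il1r2 they were -0.03, 0.11 and 0.19. Shares of all genes were not taken by cluster. Il6 was lower in 2 of 5 classes. Il18 was higher in 3 of 6 classes and Il33 in 1 of 2, and neither was lower in any. Il1a was lower in 1 class and higher in the other of its 2 classes. In mature neutrophil-like cells 2 of 7 ratios were past 1.5-fold lower and 0 higher, against 8.83% lower and 4.94% higher of all genes with 20 UMIs in the class. In immature neutrophil-like cells 2 of 5 were lower and 0 higher (all genes 9.63% and 3.84%), in granulocyte-monocyte progenitor-like cells 4 of 7 and 0 (6.41% and 4.6%), and in monocyte-like cells 3 of 8 and 1 (6.75% and 4.48%). In macrophage-like cells 1 of 7 was lower and 3 were higher (8.03% and 9.77%), and in basophil or mast cell-like cells 1 of 5 was lower and 2 were higher (12.1% and 12.5%). In mesenchymal cell-like cells 4 of 9 were lower and 1 was higher (5.89% and 8.04%), and in the pericyte or smooth muscle cell-like class 2 of 2 were lower and 0 higher (12.3% and 11.4%). In plasmacytoid dendritic cell-like cells 1 of 2 was lower and 0 higher (9.6% and 11.5%), in T cell-like cells 2 of 5 and 0 (8.09% and 8.0%), in NK cell-like cells 3 of 3 and 0 (8.1% and 10.5%), and in mature B cell-like cells 4 of 6 and 0 (6.1% and 4.25%). In B cell precursor-like cells 3 of 7 were lower and 1 was higher (8.0% and 5.21%), and in endothelial cell-like cells 3 of 4 and 0 (9.53% and 10.3%). Erythroid cell-like cells gave no ratio.

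Cells switch on immediate-early and heat shock genes (Fos, Jun, Egr1, Hspa1a and others) within minutes of a disturbance. In 13 of the 15 named classes the summed level of 12 such genes was smaller in HFD, counting differences of any size. It was 8834 UPM in ND and 5613 in HFD mature neutrophil-like cells, 15910 and 6614 in monocyte-like cells and 21350 and 16240 in mesenchymal cell-like cells. It was larger in HFD, though by less than 1.5-fold, in macrophage-like cells (10720 and 12040) and in erythroid cell-like cells (1054 and 1501). Gene by gene, the list gave 180 ratios in the named classes, 95 past 1.5-fold lower in HFD (52.8%) and 7 higher (3.89%). For all genes these shares were 8.36% and 7.27%. The part of these genes in the ratios of the cytokine genes was not tested.

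**Figure D2:**
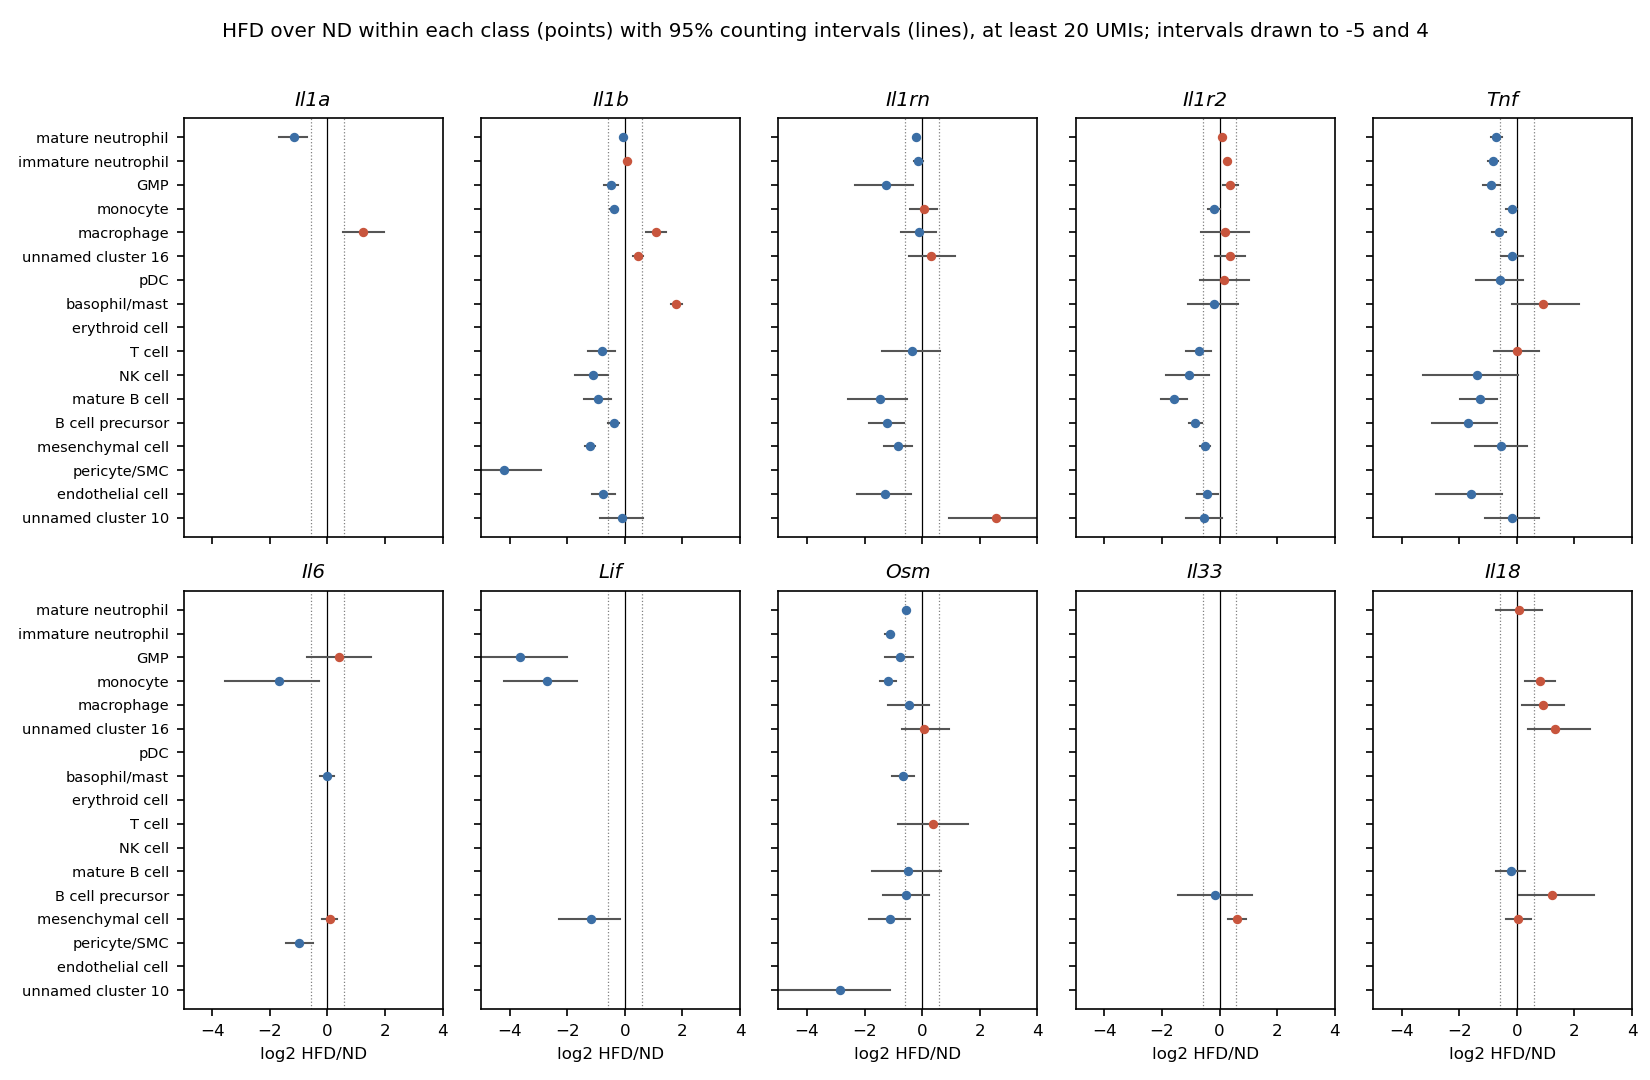
Log2 ratio of HFD over ND (x axis) for each of the 10 genes in the classes with at least 20 UMIs (points), with exact 95% intervals for counting error and dotted lines at 1.5-fold in each direction. Most Tnf, Osm and Lif points lie below 0, Il18 and Il33 lie near or above 0, and Il1b runs from -4.21 in the pericyte or smooth muscle cell-like class to 1.79 in basophil or mast cell-like cells.

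Of the IL-1 genes, the files list Il1b (ENSMUSG00000027398), Il1a (ENSMUSG00000027399), Il1rn (ENSMUSG00000026981) and Il1r2 (ENSMUSG00000026073). In GENCODE on GRCm38 (mm10), Il1a (chr2:129299610-129309972) and Il1b (chr2:129364570-129371139) are neighbours on the minus strand, 54597 bases apart. Il1rn (chr2:24336853-24351494) lies on the plus strand of the same chromosome, and Il1r2 on the plus strand of chr1:40074079-40125231. The 50 bases before the annotated start are shown for the 4 genes because 3 of them share the class of their highest level. The levels of these 3 follow different courses across the less mature clusters of the neutrophil lineage, as given below. The bases are from RefSeq on GRCm38.p6, on the strand of the gene, 5′ to 3′, with the letters TATAAA in capitals where they occur. For Il1r2 the RefSeq start, chr1:40086093, lies inside the GENCODE span of the gene given above, so its window is not upstream of that span.
Il1a, chr2:129309973-129310022, minus strand: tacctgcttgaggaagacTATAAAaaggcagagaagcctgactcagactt
Il1b, chr2:129371140-129371189, minus strand: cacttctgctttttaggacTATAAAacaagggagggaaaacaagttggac
Il1rn, the first of its starts, chr2:24336810-24336859, plus strand: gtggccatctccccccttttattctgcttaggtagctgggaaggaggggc
Il1r2, chr1:40086043-40086092, plus strand: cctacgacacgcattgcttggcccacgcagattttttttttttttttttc
The genes of both ligands hold TATAAA, beginning 32 (Il1a) and 31 (Il1b) bases before the start, while the windows of the antagonist and the decoy receptor do not hold it in these 50 bases. Of 32851 promoter windows of 300 bases, 13.6% hold TATAAA anywhere on either strand and 1.75% hold it on the strand of the gene beginning 35 to 25 bases before the start.

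Il1b had the most UMIs of the 10 genes in both libraries. Mature neutrophil-like cells held 22884 Il1b UMIs in ND and 19219 in HFD, a level of 3385 UPM (3342 to 3430) and 3228 UPM, with a log2 ratio of -0.07 (-0.10 to -0.04). An Il1b UMI was seen in 89.8% (88.3 to 91.2) of 1772 ND and 93.7% (92.4 to 94.9) of 1593 HFD cells of that class, at medians of 3422 and 3396 UMIs per cell. In mature B cell-like cells, which are not known as a source of Il1b, the share was 3.91% and 4.15% at medians of 3838 and 3746 UMIs. The median cell carried 8 Il1b UMIs in ND and 9 in HFD, and the highest 159 and 147. Thinned to 1000 UMIs per cell, 77.3% of ND and 80.8% of HFD mature neutrophil-like cells still had an Il1b UMI. Il1b was therefore found in most mature neutrophil-like cells of both libraries, and its level between diets moved by far less than 1.5-fold.

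Il1r2, the decoy receptor, stood in the same class at 2871 UPM in ND and 3037 UPM in HFD, a log2 ratio of 0.08 (0.05 to 0.11). Its UMIs were seen in 1683 of 1772 ND and 1544 of 1593 HFD cells there, with a median of 9 UMIs in both. Il1rn, the antagonist, stood at 448 UPM (432 to 464) and 387 UPM (372 to 403), a log2 ratio of -0.21 (-0.29 to -0.13), with UMIs in 65.3% and 61.9% of cells. The signs of the Il1b and Il1r2 ratios changed with the clustering, as described under the processing settings, and all their values there lay within 1.5-fold.

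Within the neutrophil lineage the decoy receptor appeared in less mature clusters than the ligand. The 7 clusters of granulocyte-monocyte progenitor-like, immature and mature neutrophil-like cells were ordered from the most to the least immature (clusters 9, 14, 6, 4, 22, 0 and 2, named by their numbers), with the progenitor cluster at the start and the others by falling level of Camp, a gene of immature granules. In ND, Il1r2 stood at 36.7 UPM in cluster 9, at 140 in 14, at 306 in 6, at 770 in 4, at 300.1 in 22, at 2384 in 0 and at 4696 in 2. Il1b stood at 53.8, 51.3, 74.1, 272, 913, 2557 and 5789 UPM in the same clusters. Il1r2 thus exceeded its progenitor level by cluster 14, whereas Il1b stayed within 1.5-fold of its progenitor level through cluster 6. In HFD, Il1b stood at 38.5, 16.0, 30.5, 352, 1898, 2470 and 4895 UPM. In whole classes, an Il1r2 UMI was found in 82.8% of ND and 88.2% of HFD immature neutrophil-like cells, an Il1b UMI in 27.3% and 29.4%. Il1rn in ND rose from 5.76 UPM in cluster 9 over 63.2 in cluster 6 to 353 in cluster 0 and 719 in cluster 2. Cluster 22, almost wholly of ND, departed from this course, with a low Il1r2 level beside its Il1b level.

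**Figure D3:**
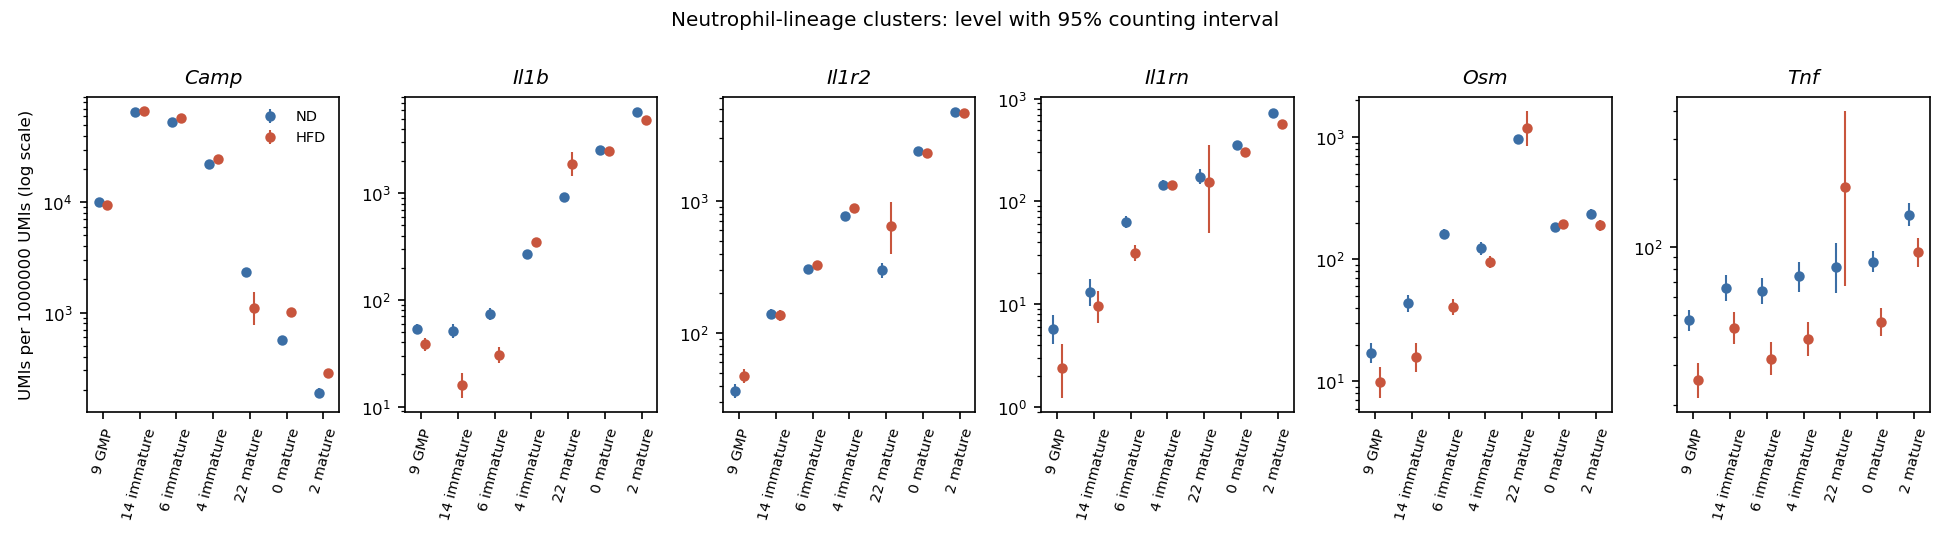
Levels (UMIs per 1000000 UMIs, log axis) of Camp and of 5 of the 10 genes, 1 panel each, across the 7 clusters of the neutrophil lineage, ordered from granulocyte-monocyte progenitor-like (GMP) to mature neutrophil-like clusters, in ND and HFD with exact 95% intervals for counting error. Il1b and Il1r2 reached 5789 and 4696 in ND cluster 2, and Osm reached 961 in ND and 1194 in HFD cluster 22.

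Outside neutrophils, Il1b and Il1r2 UMIs occurred in all named classes but the HFD erythroid cell-like class, where Il1b was at 0, and their proportion was compared with that of mature neutrophils. There were 1.18 Il1b UMIs per Il1r2 UMI in ND and 1.06 in HFD mature neutrophil-like cells. The proportion was 0.948 and 0.905 in T cell-like, 1.00 and 0.796 in endothelial cell-like, 1.42 and 0.879 in mesenchymal cell-like and 0.660 and 1.02 in mature B cell-like cells. It was 3.05 and 2.67 in monocyte-like cells, 4.11 and 7.69 in macrophage-like cells, 8.75 and 9.37 in cluster 16, and 9.85 and 39.5 in basophil or mast cell-like cells. Plasmacytoid dendritic cell-like cells lay on the other side, with 0.190 and 0.0938. They held 21 Il1r2 UMIs in ND and 32 in HFD, 48.2 UPM (29.8 to 73.6) and 54.0 UPM (36.9 to 76.2), against 4 and 3 Il1b UMIs. A low proportion was also found in immature neutrophil-like cells, 0.320 in ND and 0.281 in HFD.

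**Figure D4:**
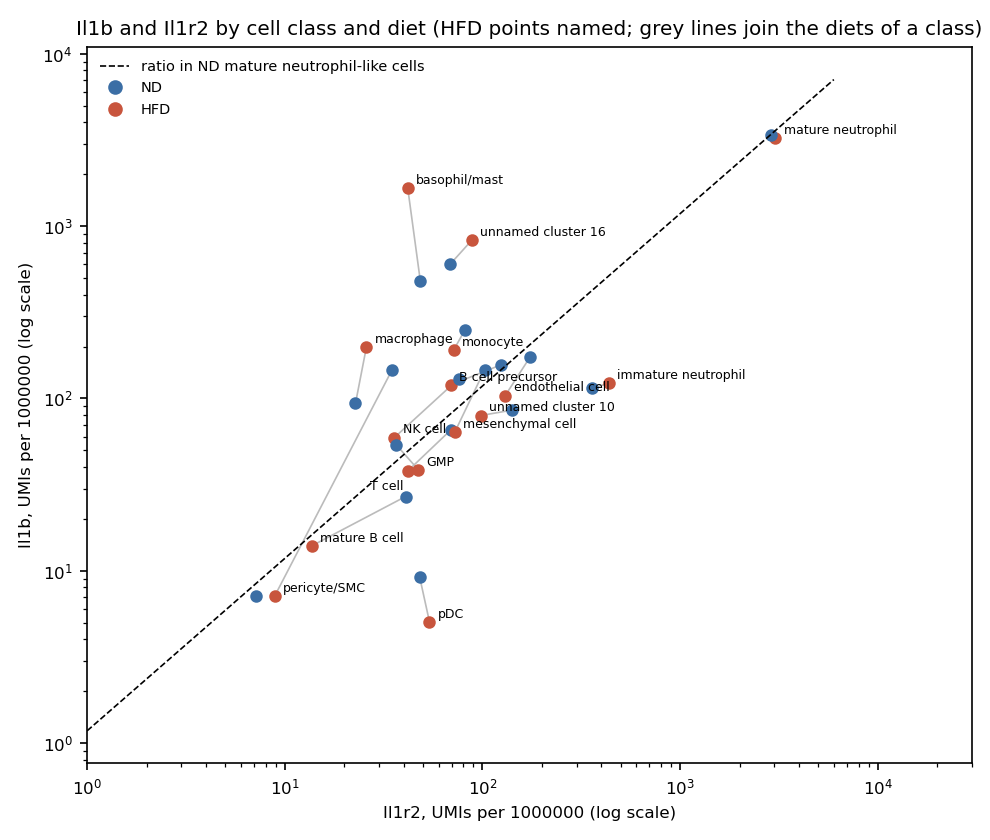
Level of Il1b (y axis) against that of Il1r2 (x axis), both as UMIs per 1000000 UMIs on log axes, for each cell class in ND and HFD, with a dashed line at the ratio in ND mature neutrophil-like cells. Lymphoid, endothelial and mesenchymal cell-like classes lie near the line, basophil or mast cell-like cells and cluster 16 above it, and plasmacytoid dendritic cell-like and immature neutrophil-like cells below it.

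Among mesenchymal cell-like cells Il1b stood at 146 UPM in ND and 63.8 UPM in HFD, a log2 ratio of -1.20 (-1.37 to -1.02), and an Il1b UMI was found in 57 of 410 and 74 of 670 cells. The level of the 8 mature neutrophil markers, none at 0, was 16370 UPM in ND and 8119 UPM in HFD mesenchymal cell-like cells and thus lower in HFD as well. Of the 698 and 444 Il1b UMIs, 540 in ND and 331 in HFD lay in subcluster 3 of the mesenchymal cell-like cells, of 39 and 46 cells. That subcluster held 5 of 6 chondrocyte markers, but its 10 leading genes included the neutrophil genes Retnlg, Stfa2l1, Ngp and S100a9 beside the cartilage genes Col2a1, Cytl1 and Acan, and it is called by its number. In endothelial cell-like cells Il1b stood at 175 and 104 UPM beside 16540 and 14140 UPM of neutrophil markers, and in NK cell-like cells at 130 and 59.3 UPM beside 2188 and 4063 UPM. In the pericyte or smooth muscle cell-like class 46 Il1b UMIs in ND stood against 4 in HFD, a log2 ratio of -4.21, and 45 of the 46 lay in 1 barcode. Without the highest barcode of each library 1 and 3 Il1b UMIs were left there. The neutrophil marker level was 5263 UPM in ND and 2334 UPM in HFD T cell-like cells and 13810 and 6048 UPM in B cell precursor-like cells. In mature B cell-like cells it was 1974 and 2224 UPM. Il1r2 was past 1.5-fold lower in all of these lymphoid classes. The part of neutrophil RNA in these differences was not tested.

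Myeloid cells other than neutrophils differed among themselves in Il1b. Monocyte-like cells held 248 UPM (234 to 263) in ND and 191 UPM (178 to 204) in HFD, a log2 ratio of -0.38 (-0.51 to -0.25), and within their larger cluster 7 the levels were 134 and 128 UPM. In cluster 21, of 111 ND and 36 HFD cells, Il1b stood at 594 and 1026 UPM. With both clusters weighted alike in the libraries the log2 ratio of the class was 0.39, so that its sign depended on the share of cluster 21. In cluster 16, with leading MHC class II genes, Il1b stood at 601 UPM (544 to 662) and 830 UPM (779 to 883), a log2 ratio of 0.46 (0.30 to 0.63). In macrophage-like cells the levels were 93.7 UPM (77.3 to 112) and 199 UPM (173 to 229), a log2 ratio of 1.09 (0.75 to 1.43), from 13 of 90 ND and 17 of 91 HFD cells. The UMIs of the macrophage-like class were concentrated: 3 ND cells and 2 HFD cells held the larger share of them. The log2 ratio was 0.42 with cells thinned to 1000 UMIs and 0.45 with the immediate-early and heat shock genes out of the clustering, both within 1.5-fold.

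Il1a, the other ligand, was rare, with 186 UMIs in ND and 124 in HFD over all kept cells. Mature neutrophil-like cells held 137 and 53 of them, a level of 20.3 UPM (17.0 to 24.0) in ND and 8.90 UPM (6.67 to 11.6) in HFD, with a log2 ratio of -1.18 (-1.67 to -0.72). The Il1a UMIs were found in 5.08% of ND and 2.38% of HFD cells of that class, against 0.174% of ND and 0 of 1013 HFD mature B cell-like cells, which allows a share of up to 0.296%. In macrophage-like cells 26 UMIs in ND stood against 50 in HFD, 21.2 and 49.8 UPM, a log2 ratio of 1.22 (0.52 to 1.98). Of the 50, 26 lay in 1 barcode, and without the highest barcode of each library the log2 ratio was 0.47 (-0.43 to 1.39). The ratio past 1.5-fold in macrophage-like cells thus rested on 1 barcode, while the UMIs of mature neutrophil-like cells came from 90 ND and 38 HFD cells.

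Basophil or mast cell-like cells, of which 48 were in ND and 52 in HFD, held 3 cytokine transcripts at high level. Their markers Cpa3, Mcpt8, Fcer1a, Ms4a2, Prss34 and Hdc were all detected. At least 3 UMIs of the basophil genes Mcpt8 and Prss34 together were found in 36 ND and 43 HFD cells, against 1 and 3 cells with at least 3 UMIs of the mast cell genes Cma1, Mcpt4 and Tpsb2. These 4 cells held 1 Il6 UMI and no Il1b UMI, so that nearly none of these transcripts lay in cells with mast cell genes. Il6 stood at 545 UPM (485 to 610) in ND and 539 UPM (478 to 606) in HFD, a log2 ratio of -0.01 (-0.25 to 0.22). An Il6 UMI was found in 39 of 48 ND and 41 of 52 HFD cells, 81.2% (67.4 to 91.0) and 78.8% (65.3 to 88.9), at median depths of 7532 and 6442 UMIs. In mature B cell-like cells 0 of 1151 ND and 1 of 1013 HFD cells had an Il6 UMI. The median basophil or mast cell-like cell carried 4 Il6 UMIs in ND and 4.5 in HFD, and the highest 31 and 19. The class, 0.796% of ND and 0.836% of HFD cells, held 303 of 623 and 283 of 694 Il6 UMIs.

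Il1b in basophil or mast cell-like cells differed between the libraries. It stood at 478 UPM (422 to 539) in ND and 1654 UPM in HFD, with a log2 ratio of 1.79 (1.59 to 1.99). At least 5 Il1b UMIs were found in 7 of 48 ND cells, 14.6% (6.07 to 27.8), and in 22 of 52 HFD cells, 42.3% (28.7 to 56.8). The highest cell held 78 of 266 UMIs in ND and 172 of 868 in HFD, and without these cells the log2 ratio was 2.04 (1.81 to 2.29). All 8 mature neutrophil markers had UMIs in the class, at a summed 13200 UPM in ND and 1406 in HFD, or 6505 in ND without 1 barcode that held 3937 of them and 27 Il1b UMIs. The median cell held 12 neutrophil marker UMIs in ND and 10 in HFD, and the 22 HFD cells with at least 5 Il1b UMIs had a median of 10. A pair of ND barcodes held 6736 of the 7341 ND marker UMIs. Without them the marker level was 1187 UPM in ND against 1406 UPM in HFD, and the log2 ratio of Il1b was 1.82 (1.61 to 2.03). The part of neutrophil RNA in the Il1b UMIs of the class was not tested. Osm in the same class stood at 272 UPM (230 to 318) and 172 UPM (138 to 211), a log2 ratio of -0.66 (-1.05 to -0.28), or -0.46 with cells thinned to 1000 UMIs, with UMIs in 56.2% and 57.7% of cells. Il6 and Il1b occurred in the same cell in 11 ND and 29 HFD cells, 22.9% and 55.8%, where the product of their separate shares gives 20.3% and 48.5%. With cells thinned to 1000 UMIs these were 3 ND and 9 HFD cells, 6.25% and 17.3%, against products of 5.47% and 15.5%.

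**Figure D5:**
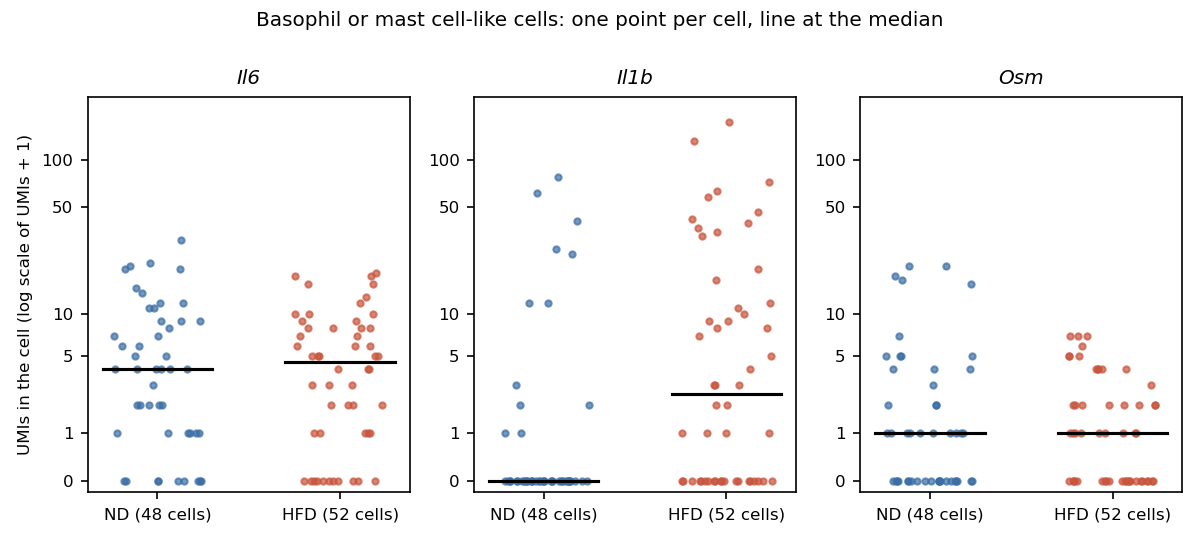
UMIs of Il6, Il1b and Osm in each of the 48 ND and 52 HFD basophil or mast cell-like cells (points, 1 per cell), on a log axis of UMIs plus 1 with a line at the median. Il6 spread alike in both diets with medians of 4 and 4.5, whereas 7 ND and 22 HFD cells had at least 5 Il1b UMIs.

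Tnf (ENSMUSG00000024401, chr17:35199381-35202007, minus strand) was highest in macrophage-like cells. It stood there at 332 UPM (300.0 to 365) in ND and 217 UPM (189 to 248) in HFD, a log2 ratio of -0.61 (-0.85 to -0.37), and was found in 71 of 90 and 60 of 91 cells. The median macrophage-like cell held 3 Tnf UMIs in ND and 1 in HFD, and without the highest barcode of each library the log2 ratio was -0.58 (-0.84 to -0.33) and with cells thinned to 1000 UMIs -0.45, both within 1.5-fold. In mature neutrophil-like cells Tnf stood at 102 UPM (94.9 to 110) and 62.5 UPM (56.3 to 69.2), a log2 ratio of -0.71 (-0.90 to -0.53), which came within 1.5-fold with the members kept among the variable features (-0.55) and with the clusters weighted alike (-0.54). Immature ones stood at 67.2 and 37.8 UPM, a log2 ratio of -0.83 (-1.01 to -0.65). In granulocyte-monocyte progenitor-like cells the levels were 47.5 and 25.7 UPM, a log2 ratio of -0.88 (-1.19 to -0.59). Along the neutrophil lineage Tnf ranged far less than Il1b, in ND from 47.5 UPM in cluster 9 to 139 UPM in cluster 2. Its log2 ratio was below 0 in 6 of the 7 clusters, past 1.5-fold in clusters 9, 6, 4 and 0. It was within 1.5-fold in clusters 14 (-0.58) and 2 (-0.55), and shares of all genes were not taken by cluster. In cluster 22, 6 UMIs of 8 HFD cells gave 184 UPM (67.4 to 399.7) against 81.4 in ND. Monocyte-like cells had 102 UPM (93.5 to 112) and 90.1 UPM (81.5 to 99.3), a log2 ratio of -0.19 (-0.38 to 0.01). One HFD barcode held 76 of their 405 Tnf UMIs, and without the highest barcode of each library the log2 ratio was -0.30 (-0.51 to -0.09). A Tnf UMI was found in 40.9% of ND and 28.4% of HFD monocyte-like cells. Basophil or mast cell-like cells gave the only class ratio past 1.5-fold higher, 0.92 (-0.18 to 2.15), from 11 and 20 UMIs, and its interval holds 0. Among the lower calls, the intervals also hold 0 in plasmacytoid dendritic cell-like cells, -0.60 (-1.42 to 0.21), and in NK cell-like cells, -1.38 (-3.28 to 0.04). The 50 bases before the start of Tnf are shown because, as in the IL-1 ligand genes, TATAAA (capitals) begins 29 bases before the start, while the levels of the genes differ in place.
Tnf, chr17:35202008-35202057, minus strand: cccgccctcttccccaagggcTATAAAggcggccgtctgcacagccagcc

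Osm (ENSMUSG00000058755, chr11:4236420-4241026) and Lif (ENSMUSG00000034394, chr11:4257557-4272514), the neighbouring genes of a pair of gp130 ligands, lie 16530 bases apart on the plus strand. By the mean of both libraries their highest levels lay in different classes, while monocyte-like cells held UMIs of both. Whether both occurred in the same single cells was not tested. Osm stood at 291 UPM (278 to 304) in ND and 199 UPM (188 to 211) in HFD mature neutrophil-like cells, a log2 ratio of -0.55 (-0.65 to -0.44). That difference rested on cluster 22, where Osm reached 961 UPM (894 to 1032) in 132 ND cells and 1194 UPM (849 to 1632) in 8 HFD cells. Within cluster 0 the levels were 184 and 196 UPM, within cluster 2 they were 236 and 190 UPM, and without clusters mostly of 1 library the log2 ratio of the class was -0.065. With the clusters weighted alike in both libraries it was 0.043. In immature neutrophil-like cells Osm was lower in HFD, at 108 UPM (101 to 115) and 49.4 UPM (45.3 to 53.7), a log2 ratio of -1.13 (-1.28 to -0.98), which was -0.28 and thus within 1.5-fold with the members kept among the variable features. Cluster 6 carried the larger part of that difference, with 162 and 40.5 UPM, a log2 ratio of -2.00 (-2.25 to -1.76). With the members kept, a cluster of 228 ND and 22 HFD cells was named mature neutrophil-like. At resolution 1 a cluster of 229 ND and 21 HFD cells was named immature neutrophil-like. The part of such mostly ND cells in the immature Osm ratio was not tested. Monocyte-like cells stood at 78.6 UPM (70.8 to 87.0) and 34.7 UPM (29.5 to 40.6), a log2 ratio of -1.18 (-1.46 to -0.91), which was -0.70 within cluster 7. Osm was found in 43.2% of ND and 38.7% of HFD mature neutrophil-like cells, against 1.39% and 0.987% of mature B cell-like cells.

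Lif had 141 UMIs in ND and 42 in HFD over all kept cells. Monocyte-like cells held 51 and 7 of them, 10.8 UPM (8.07 to 14.2) and 1.56 UPM (0.626 to 3.21), a log2 ratio of -2.71 (-4.18 to -1.65). Cluster 21 held 27 of the 51 ND UMIs, and without it the levels were 6.79 and 1.44 UPM, a log2 ratio of -2.16. In granulocyte-monocyte progenitor-like cells 43 UMIs stood against 2, a log2 ratio of -3.63 (-7.03 to -1.99), and in mesenchymal cell-like cells 22 against 14, a log2 ratio of -1.18 (-2.27 to -0.16). In monocyte-like cells the UMIs came from 18 ND and 7 HFD cells, and without the highest cell of each library the log2 ratio was -2.64. Thus the low counts of Lif were lower in HFD in all 3 classes with at least 20 UMIs. Below that minimum they went both ways: T cell-like cells held 2 in ND and 8 in HFD, cluster 16 held 0 and 5, and macrophage-like cells held 10 and 1.

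Il6 (ENSMUSG00000025746, chr5:30013114-30019981, plus strand), high in basophil or mast cell-like cells, had a further place in the stroma. In the pericyte or smooth muscle cell-like class it stood at 269 UPM (215 to 333) in ND and 137 UPM (108 to 171) in HFD, a log2 ratio of -0.98 (-1.44 to -0.52). There 1 barcode held 43 of the 85 ND UMIs and 1 held 35 of the 77 HFD UMIs, and an Il6 UMI was found in 6 of 31 and 13 of 59 cells. Without these barcodes the log2 ratio was -0.88 (-1.53 to -0.23), from 42 UMIs in each library. In mesenchymal cell-like cells Il6 stood at 38.9 UPM (33.5 to 44.9) and 40.9 UPM (36.3 to 46.0), a log2 ratio of 0.07 (-0.20 to 0.35), in 13.7% and 10.6% of cells. Most of it lay in the fibroblast progenitor-like subcluster (Pi16, Dpp4 and other markers; 212 ND and 326 HFD cells), with 145 and 229 UMIs, 60.8 UPM (51.3 to 71.5) and 72.8 UPM (63.7 to 82.9). The highest cell held 19 of these UMIs in ND and 52 in HFD. An Il6 UMI was found in 22.2% of ND and 16.3% of HFD cells of the subcluster, so the share of cells was smaller in HFD. The tenocyte-like subcluster held 4 and 17 Il6 UMIs and the osteoblast-like one 10 and 4. The stromal Il6 UMIs were few per cell and uneven: 9 ND and 13 HFD mesenchymal cell-like cells had at least 5 of them. The 50 bases before the start of Il6 are shown because this is the only window of the members that held a match to a kappaB motif, searched on both strands, which begins 44 bases before the start (capitals) and is found in 4.51% of all windows.
Il6, chr5:30013064-30013113, plus strand: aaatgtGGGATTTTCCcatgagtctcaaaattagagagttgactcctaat
A further search found the AP-1 letters TGANTCA in the windows of Il1a, Il1rn, Il6 and Lif (7.81% of all windows) and the C/EBP letters TTGCNNAA in those of Il6 and Il33 (10.8%). Of the 10 genes, 9 had an entry among these windows, and Osm had none. A match is a match of letters and says nothing of binding.

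Il33 (ENSMUSG00000024810, chr19:29925114-29960718, plus strand) was the member most closely tied to 1 class. Mesenchymal cell-like cells held 124 of 149 Il33 UMIs in ND and 277 of 296 in HFD, while monocyte-like, macrophage-like, T cell-like, NK cell-like and basophil or mast cell-like cells had 0 in both libraries. In monocyte-like cells a count of 0 allows up to 0.637 UPM in ND and 0.667 UPM in HFD. The mesenchymal level was 25.9 UPM (21.6 to 30.9) in ND and 39.8 UPM (35.2 to 44.7) in HFD, a log2 ratio of 0.61 (0.31 to 0.93). The share of mesenchymal cell-like cells with an Il33 UMI was 13.7% (10.5 to 17.4) and 15.2% (12.6 to 18.2), at median depths of 10636 and 9526 UMIs. Without the highest cell of each library the log2 ratio was again 0.61, and with cells thinned to 1000 UMIs it was 0.34, within 1.5-fold.

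Among the mesenchymal subclusters Il33 followed the fibroblast progenitor-like cells, where it stood at 40.2 UPM (32.6 to 49.1) in ND and 73.5 UPM (64.3 to 83.6) in HFD, a log2 ratio of 0.86 (0.52 to 1.23), in 22.2% and 27.0% of cells. In tenocyte-like cells the levels were 17.8 and 8.11 UPM from 19 and 13 UMIs, a log2 ratio of -1.12 (-2.27 to -0.04). In osteoblast-like cells no Il33 UMI was seen in 60 ND or 129 HFD cells, which allows up to 5.51 and 2.66 UPM. Subcluster 3, with cartilage and neutrophil genes in its lead, held 9 and 33 UMIs, a log2 ratio of 1.63 (0.60 to 2.94). The higher Il33 level of HFD mesenchymal cell-like cells was thus seen in the fibroblast progenitor-like subcluster and in subcluster 3, while tenocyte-like cells had a lower one. The second annotated start of Il33 is shown because it, and not the first, has TATAAA (capitals) near the start, beginning 29 bases before it.
Il33, the second of its starts, chr19:29945740-29945789, plus strand: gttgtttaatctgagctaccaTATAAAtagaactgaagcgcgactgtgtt

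Il18 (ENSMUSG00000039217, chr9:50554827-50581840, plus strand) was found in macrophage-like, monocyte-like, mesenchymal cell-like and mature B cell-like cells. In macrophage-like cells it stood at 22.8 UPM (15.2 to 33.0) in ND and 42.9 UPM (31.0 to 57.7) in HFD, a log2 ratio of 0.90 (0.19 to 1.65), which was 0.62 (-0.17 to 1.44) without the highest cell of each library. In monocyte-like cells it stood at 10.6 and 18.5 UPM from 50 and 83 UMIs, a log2 ratio of 0.79 (0.27 to 1.33), in 43 of 359 and 62 of 327 cells. In cluster 16 the levels were 14.6 and 38.5 UPM, a log2 ratio of 1.34 (0.39 to 2.55). Il18 thus stood higher in HFD in each of these 3 groups of mononuclear myeloid cells. It was not higher in these alone: B cell precursor-like cells held 8 and 22 Il18 UMIs, a log2 ratio of 1.24 (0.07 to 2.67). In mesenchymal cell-like cells the levels were alike, 16.7 and 17.4 UPM, with a log2 ratio of 0.05 (-0.36 to 0.48), and 68 of 80 ND and 97 of 121 HFD UMIs lay in the fibroblast progenitor-like subcluster. Mature B cell-like cells held 82 and 62 UMIs, and nearly all of them lay in cluster 1 (81 and 61), a cluster with high immunoglobulin light chain and Vpreb3 UMIs, at 26.0 UPM (20.7 to 32.3) and 22.5 UPM (17.2 to 28.9). In clusters 5 and 20, the MHC class II-high mature B cell-like cells, 1 and 0 Il18 UMIs were seen in ND and 1 and 0 in HFD. NK cell-like and T cell-like cells had 1 Il18 UMI each in ND and 0 in HFD.

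The receptors and partners of these cytokines were followed over the same classes. Il1r1, the signalling IL-1 receptor, stood at 60.6 UPM in ND and 57.3 in HFD mesenchymal cell-like cells and at 63.4 and 60.4 in the pericyte or smooth muscle cell-like class. Il1rl1, the IL-33 receptor, was highest in basophil or mast cell-like cells, at 75.5 UPM (54.4 to 102) and 101 UPM (75.7 to 132), a class without Il33 UMIs. Il18r1, the IL-18 receptor, stood at 158 and 114 UPM in NK cell-like cells and at 97.1 and 110 in basophil or mast cell-like cells. Il6ra, which binds IL-6, stood at 141 and 124 UPM in monocyte-like cells. Il6st, which encodes gp130, stood at 215 and 231 UPM in endothelial and 155 and 170 UPM in mesenchymal cell-like cells. Lifr stood at 106 and 130 UPM and Osmr at 81.4 and 76.3 UPM in endothelial cell-like cells. Nlrp3, the sensor of the inflammasome, was highest in mature neutrophil-like cells, at 521 and 410 UPM, a log2 ratio of -0.34. Over the 15 named classes together, the 7 inflammasome and release genes gave 90 ratios with at least 20 UMIs, 3 past 1.5-fold higher in HFD and 9 lower. The 7 genes of TNF receptors and shedding gave 87, 5 higher and 6 lower, and 3 of the 5 were in basophil or mast cell-like cells. The 8 genes of gp130 receptors and related ligands gave 51, 7 higher and 6 lower, and the 7 adaptors of IL-1 receptors 86, 7 higher and 8 lower. The share of all genes was 7.27% higher and 8.36% lower, as given above, against 3.33% and 10.0% for the inflammasome list, 5.75% and 6.9% for the TNF list, 13.7% and 11.8% for the gp130 list and 8.14% and 9.3% for the adaptors. A list of 9 IL-1 family genes outside the members held receptors and modulators, Il1r1 among them, and the ligand gene Il36g. It gave 47 ratios, 4 higher and 9 lower (19.1%), and 9 further cytokine genes gave 34, 3 higher and 11 lower (32.4%).

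The genes whose levels ran most like those of the members were listed over 29 combinations of class and diet with at least 50 cells, from 9675 genes with at least 500 UMIs. These correlations describe levels that share libraries and depth. Il1b ran most like Ccl6 (Pearson's r = 0.93), a chemokine gene, and Nlrp3 (0.904). Il1r2 ran like Slc7a11 (0.963), the cystine transporter gene, and Csf3r (0.942), the receptor gene of the neutrophil growth factor. Il1rn ran like Zswim4 (0.902) and Osm like Lilr4b (0.916). Tnf ran like the macrophage genes Csf1r (0.874) and Cd68 (0.857), and Il33 like the stromal matrix genes Svep1 (0.967) and Podn (0.963). Il6 ran like Gpc4 (0.816), Il18 like Eps8 (0.831), Il1a like Cxcl3 (0.814) and Lif like Zfp64 (0.643). For Il6 the minimum of 50 cells left out the classes with its highest ND levels. These were the ND basophil or mast cell-like (48 cells) and ND pericyte or smooth muscle cell-like (31 cells) combinations. Among the members themselves the closest pairs were Il1rn with Il1r2 (0.850) and Il1b with Osm (0.817).

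Within mature neutrophil-like cells Il1b was found together with Il1r2, Tnf and Osm about as often as their separate shares would give. Il1b was seen in most of these cells, so with all UMIs its joint shares could depart little from the products. Il1b and Il1r2 were both seen in 86.0% of ND and 91.2% of HFD cells, against products of 85.3% and 90.8%. Il1b and Tnf were both seen in 19.8% and 14.2% of cells, against 19.0% and 13.7%. Il1b and Osm were both seen in 37.2% and 35.2%, against 38.8% and 36.2%. Among pairs without Il1b, Il1rn and Tnf were both seen in 15.41% and 10.55% of cells, against 13.83% and 9.053%. Il1rn and Osm were both seen in 27.2% and 25.17%, against 28.25% and 23.93%. With cells thinned to 1000 UMIs, Il1b and Il1r2 were both seen in 66.1% and 70.1% of cells, against 61.7% and 68.8%, and Il1b and Osm in 240 of 1770 and 191 of 1592 cells, against products of 14.8% and 12.7%. Of the 5 members paired with Il1b in these cells, Osm alone had a joint share below the product in both libraries and at both depths.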

How the data were processed

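Periosteal cells were measured in 1 pooled library per diet, and the labels list 4 mice for each. The authors made the deposited counts, whole numbers of UMIs per gene and barcode without normalization, with Cell Ranger 6.0.1 on mm10, as the submitters' processing notes name them. No read depth beyond UMIs was used here. The 10 genes and the gene lists were chosen with earlier results of these data known. Libraries held 48558889 (ND) and 49940976 (HFD) UMIs in 6314 and 6636 barcodes. Kept cells of both diets were merged and clustered in R 4.3.3 with Seurat 5.3.0 and sctransform 0.4.2, with cell cycle scores regressed out, at resolution 0.5 on 30 principal components, without the 10 genes among the variable features. Mesenchymal cell-like cells were clustered again at resolution 0.2. A cluster was named when at least 3 fixed markers stood 2-fold over the median of the clusters. Ratios were taken from summed UMIs with 0.5 added, with exact conditional binomial intervals. Levels have exact Poisson and shares Clopper-Pearson intervals (95%), and a count of 0 was taken to allow 3 counts. The named genes were all 10 members, listed pathway genes with at least 20 UMIs and, for each member, up to 3 genes of most similar level. UMIs are molecules sampled from 2 libraries, so intervals leave out the spread between mice. The intervals of levels and ratios also leave out the uneven spread of UMIs between cells. Scrublet (scanpy 1.11.5) called 9 ND and 23 HFD cells doublets, too few to have worked, and these were kept. The computation was tested on simulated counts.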

Additional observations from a re-analysis of the deposited data

Results flagged for a closer look

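Il1a moved in opposite directions in 2 classes, with a log2 ratio of HFD over ND of 1.22 in macrophage-like and -1.18 in mature neutrophil-like cells. The difference between the classes was not tested. Of the 50 HFD macrophage-like UMIs, 26 lay in 1 barcode.

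Il1b likewise had a log2 ratio of 1.79 in basophil or mast cell-like cells and -4.21 in the pericyte or smooth muscle cell-like class, and this difference was not tested either. Of the 46 ND pericyte or smooth muscle cell-like UMIs, 45 lay in 1 barcode.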

How the results depend on the processing

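No paired analysis was possible because each diet was deposited as 1 pooled matrix, in which the replicate numbers of the labels have no columns. Leaving out clusters mostly of 1 library and doublets by score (over 0.25) were chosen after seeing the data. The alternatives were followed for 52 ratios, unnamed clusters included, each with at least 100 UMIs or in the highest class of its gene. Of the 672 values that these gave under the alternatives, 657 had the main sign. Changing the added count or the handling of mitochondrial UMIs kept every sign. Thinning to 1000 UMIs kept 36 of 38 signs, and 11 of 17 ratios past 1.5-fold stayed past it. In mature neutrophil-like cells the log2 ratio of Osm was -0.44 with cells thinned to 1000 UMIs, -0.77 with the members kept among the variable features, -0.0069 at resolution 1, -0.065 without clusters mostly of 1 library and 0.043 with the clusters weighted alike. In the same order, that of Il1r2 was 0.032, 0.25, -0.094, -0.073 and -0.0174. That of Il1b was 0.10 with the members kept, -0.20 at resolution 1, -0.20 without clusters mostly of 1 library and -0.12 with the clusters weighted alike, and that of Il1rn was -0.067, -0.33 and -0.32 in the first 3 of these. Osm in immature neutrophil-like cells ran from -0.28 (members kept) to -1.74 (resolution 1). Il1a in macrophage-like cells was 0.31 with the immediate-early and heat shock genes out of the clustering, and its HFD level was between 21.5 and 22.9 UPM under 4 alternatives, this one included. Il1b reversed in T cell-like cells when thinned (0.85) and in mature B cell-like cells with at least 200 genes (0.13). Il1b also changed sign in granulocyte-monocyte progenitor-like cells at resolution 0.25 (1.17) and when thinned (0.44), in immature neutrophil-like cells at resolution 1 (-0.65) and with the clusters weighted alike (-0.083), and in monocyte-like cells weighted alike (0.39), and Il1r2 did so in granulocyte-monocyte progenitor-like cells with at least 200 genes (-0.023) and at resolution 1 (-0.029). The Il1b ratio of T cell-like cells came within 1.5-fold without cluster 19 (-0.55). The ND basophil or mast cell-like barcodes with most neutrophil marker UMIs were left out after seeing the data. Thinning left 35 ratios, 11 past 1.5-fold lower and 3 higher. A minimum of 100 UMIs left 45, 21 lower and 4 higher. A minimum of 5 UMIs gave 13 higher, and its total and its lower ratios are not given here. Shares of all genes were not taken after thinning or at these other minimums, so none of these counts can be compared with all genes. Counting depth limits Lif, Il1a and Il33, most of whose class counts are under 100 UMIs.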

Other observations

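Other interleukin genes from the listed pathway genes had their own places. Il4, which encodes the main cytokine of type 2 immunity, stood at 372 UPM (323 to 426) in ND and 583 UPM (519.6 to 652) in HFD basophil or mast cell-like cells, a log2 ratio of 0.65, while Il13 stood at 128 and 126 UPM there. Ifng, which encodes interferon gamma, was highest in NK cell-like cells, at 664 UPM (607 to 726) and 476 UPM (424 to 532). Il17a had 30 UMIs in ND T cell-like cells, 15.4 UPM (10.4 to 21.9), and 0 in HFD ones, which allows up to 1.99 UPM. The spread of these 30 UMIs over cells and clusters is not given here. Il36g, an IL-1 family ligand gene that the files list as Il1f9, stood at 421 and 372 UPM in mature neutrophil-like cells, a log2 ratio of -0.18.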
